A study of Homo sapiens with 8 samples.

Results

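The TM4SF genes, also called the L6 family, were examined in HCT116, a human colorectal carcinoma line. Their members were chosen by gene symbol (TM4SF1, TM4SF4, TM4SF5, TM4SF18 and TM4SF20), and the family was taken up because TM4SF18 was known from these arrays to differ strongly between the 2 lines. Each member had 1 probe set paired with it alone, which made 5 of the 18417 genes measured. There were 4 groups of 2 arrays, and every group carried a short hairpin RNA and had been kept without serum for 40 h. They were shCDK8 cells given 10% fetal bovine serum for 30 min, shControl cells given the same serum, shCDK8 cells at the end of starvation, and shControl cells at the end of starvation. CDK8 is the kinase of the Mediator kinase module, which links sequence-specific factors to RNA polymerase II. Each line carried a single hairpin, and whether it was a clone or a pool is not given in the sources used here, so the knockdown and any other difference between the lines cannot be told apart. The labels call the arrays duplicates without naming separate cultures. The p-values therefore reflect how far duplicate arrays differ, and that difference may be technical only. All RNA came from whole cultures, in which fewer cells with a transcript and less of it per cell cannot be told apart.

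Proteins of the L6 family cross the membrane repeatedly, as classical tetraspanins do, with a short and a long extracellular loop, but their sequences are not closely related to those of tetraspanins. They sit at the cell surface or on internal membranes and gather integrins, receptor kinases and other tetraspan proteins around them. TM4SF1 is the tumour antigen L6, found on many carcinomas and on endothelial cells. TM4SF4 is known from intestine and liver, and TM4SF5 from hepatocellular carcinoma, where it acts on integrins and focal adhesion kinase. TM4SF20 restrains the proteolytic activation of the membrane-bound transcription factor CREB3L1. TM4SF18 is the least studied, with a role in the VEGF response of endothelial cells described in zebrafish.

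TM4SF18, TM4SF1 and TM4SF4 lie next to each other on chromosome 3. In RefSeq on GRCh38.p14, TM4SF18 occupies chr3:149318498-149333636 on the minus strand, TM4SF1 chr3:149369022-149377649 on the minus strand and TM4SF4 chr3:149474697-149503394 on the plus strand, a block of 184.9 kb. TM4SF5 lies at chr17:4771886-4783211 (plus) and TM4SF20 at chr2:227362038-227381647 (minus). A further RefSeq gene, the antisense RNA TM4SF18-AS1, is annotated over TM4SF18, and another, TM4SF1-AS1, lies beside TM4SF1; the strand that the probes read is not given in the sources used here. The 3 clustered genes are neighbours and relatives, and TM4SF18 alone of them read very differently between the lines. For this reason the 250 bases before the annotated start of each are shown. They come from RefSeq (GRCh38.p14), are written in the direction of each gene, and span chr3:149333637-149333886 for TM4SF18, chr3:149377650-149377899 for TM4SF1 and chr3:149474447-149474696 for TM4SF4. Capitals mark matches to the motifs searched.
TM4SF18: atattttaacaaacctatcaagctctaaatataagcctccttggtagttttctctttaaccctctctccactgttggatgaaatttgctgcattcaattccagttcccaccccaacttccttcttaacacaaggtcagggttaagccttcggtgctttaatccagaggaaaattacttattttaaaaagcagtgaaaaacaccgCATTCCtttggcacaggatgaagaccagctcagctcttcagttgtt
TM4SF1: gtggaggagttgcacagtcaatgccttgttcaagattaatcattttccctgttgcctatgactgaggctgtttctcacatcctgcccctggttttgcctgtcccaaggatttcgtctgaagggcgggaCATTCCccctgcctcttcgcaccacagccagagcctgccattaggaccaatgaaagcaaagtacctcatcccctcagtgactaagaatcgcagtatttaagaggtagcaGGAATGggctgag
TM4SF4: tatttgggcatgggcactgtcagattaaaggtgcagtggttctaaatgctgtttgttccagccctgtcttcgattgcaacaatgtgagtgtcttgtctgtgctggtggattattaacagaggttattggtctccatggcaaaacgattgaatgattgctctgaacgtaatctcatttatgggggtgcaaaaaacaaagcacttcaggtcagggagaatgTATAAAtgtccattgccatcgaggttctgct

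The TM4SF18 stretch was the poorest of the 3 in G and C, with 40.0% GC and 2 CpG dinucleotides, against 50.8% and 4 for TM4SF1 and 43.2% and 4 for TM4SF4. The median of 35116 such stretches was 58.0% GC and 11 CpG, and 12.7% of them had less GC than that of TM4SF18. TM4SF5 had 57.2% GC and 3 CpG. TM4SF20, for which the promoter table starts from a transcript shorter than the gene, had 31.2% and 2. Both strands were searched for short motifs of common promoter elements and factors. The TATA box was searched as TATAAA and the site of TEAD factors, the DNA partners of TAZ, as GGAATG. The site of GATA factors was searched as AGATAA and that of AP-1 as TGANTCA. For TCF and LEF factors the letters were CTTTGAT, for the E-box they were CACGTG, and for the cyclic AMP response element (CRE) they were TGACGTCA. The CArG box of SRF was searched in its degenerate form. None of their matches overlapped in these stretches. GGAATG occurred 1 time before TM4SF18 and 2 times before TM4SF1, at positions -46 to -41 for TM4SF18 and at -122 to -117 and -13 to -8 for TM4SF1, counted from the annotated start. The matches at -46 to -41 and at -122 to -117 lie on the opposite strand, so they appear above as the reverse complement, CATTCC. On either strand GGAATG was present in 11.9% of all stretches. TATAAA occurred before TM4SF4 alone of the 5 members, at -31 to -26 (10.7% of all stretches), and AGATAA before TM4SF20 alone (9.2%). The AP-1, TCF and LEF, E-box, CRE and CArG letters were in none of the 5, and they were in 6.6%, 2.3%, 6.3%, 1.6% and 1.2% of all stretches. These matches describe the letters and do not show binding.

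Levels are log2 probe set summaries, on which 1 unit is a doubling, and errors of levels are SDs with n = 2 arrays. Probe sets differ in brightness, so a level is compared between groups and not ranked against other genes. The exception is 5.55, the 25th percentile of gene means. It serves as a rough mark, and a level below it is not taken as shown to be above background. The targeted gene was checked on probe set 7968199, which the annotation pairs with CDK8 and with ADRA1B. It read 6.99 to 7.09 on the 4 shCDK8 arrays and 9.19 to 9.23 on the 4 shControl arrays. Array medians lay between 6.44 and 6.51. The 7 epithelial markers (such as EPCAM and KRT8) read between 8.80 and 12.7 over all arrays. Of these, 5 passed limma's test between the lines after serum, beside 14.2% of all genes. In starved cells 4 passed (2 higher and 2 lower in shCDK8 cells), beside 13.4% of all genes. The differences were at most 0.564 and 0.555. By group mean KRT8, KRT18 and CDH1 were higher in shCDK8 cells at both times, and EPCAM, KRT19, CLDN4 and CLDN7 were lower. Of 5 mesenchymal markers ACTA2 alone passed and was higher at both times (7.95 in shCDK8 and 7.45 in shControl cells after serum, 7.88 and 7.51 before it). Their part in the line differences below was not tested. Of 5 intestinal markers none passed between the lines at either time. As group means, CDX2 read 7.94 to 8.13, CDX1 7.18 to 7.42, LGALS4 6.25 to 6.37, VIL1 5.50 to 5.75 and CDH17 4.15 to 4.37, and the files hold no detection call for any gene. No blood marker (3 measured) and no endothelial marker (6 measured) passed the test between the lines at either time, and these read 3.53 to 6.23 and 4.73 to 5.94 over all arrays.

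TM4SF18 read 8.22 to 8.31 on the shCDK8 arrays and 4.15 to 4.37 on the shControl arrays. After serum it read 8.31 and 8.26 in shCDK8 cells, against 4.21 and 4.37 in shControl cells. At the end of starvation it read 8.22 and 8.27 in shCDK8 cells, against 4.15 and 4.29 in shControl cells. The lines did not overlap, and the lowest shCDK8 array stood 3.85 above the highest shControl array. Duplicates differed by only 0.0468 to 0.167. As group means the level was 8.29 ± 0.03 in shCDK8 cells and 4.29 ± 0.12 in shControl cells after serum, a difference of 3.99 or 15.9-fold, and 8.24 ± 0.03 in starved shCDK8 cells and 4.22 ± 0.10 in starved shControl cells, a difference of 4.03 or 16.3-fold. These are the values for which the family was taken up, so they are given as a description with no test. The shControl level lay below 5.55, the 25th percentile of gene means, and is not shown to be above background, so both differences and folds may understate the true ones. As measured, with the shControl side possibly set by the floor of the probe set, the line difference of TM4SF18 was the 4th of 18417 genes by absolute size after serum and the 4th in starved cells. In order of level the groups ran shCDK8 serum, shCDK8 starved, shControl serum, shControl starved, and the 2 groups of each line, neighbours in that order, overlapped.

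**Figure D1:**
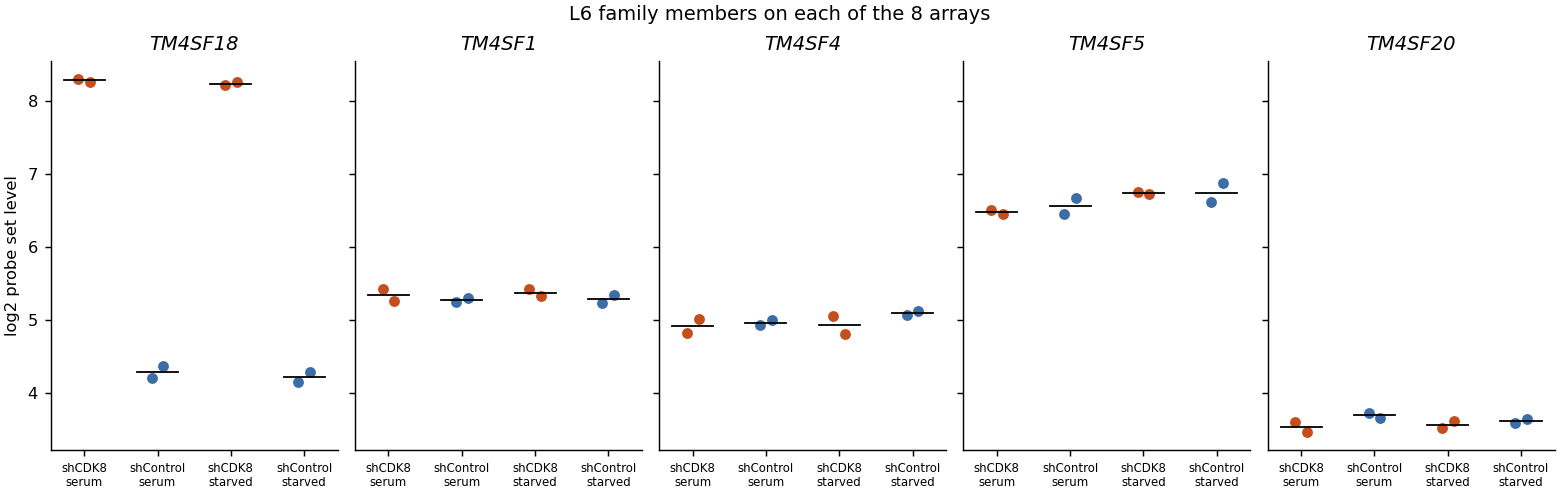
Log2 probe set level (vertical axis) of the 5 members on each array, by group (horizontal axis). Points are arrays, shCDK8 in orange and shControl in blue, and bars are group means of 2 arrays; levels are comparable within a panel. TM4SF18 reads 8.22 to 8.31 in shCDK8 cells and 4.15 to 4.37 in shControl cells, and the other 4 members vary by at most 0.42 over all arrays.

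None of the other members showed a line difference of that kind. Their differences of group means reached at most 0.159 in size after serum and 0.165 in starved cells, beside duplicate differences of 0.0281 to 0.262. The lines overlapped for 3 of these 4 members after serum and for 3 in starved cells. Over all genes the arrays of the lines failed to overlap for 53.9% after serum and 52.1% in starved cells, so a lack of overlap was common. Since the line comparison was used to choose the family, no member was tested in it. TM4SF1, TM4SF4 and TM4SF20 had mean levels of 5.32, 4.97 and 3.60, each below 5.55, the 25th percentile of gene means. They are not shown to be above background, so their flat readings need not mean equal expression in both lines. The median line difference of the 5 members was -0.048 after serum and -0.0036 in starved cells, beside -0.0069 and -0.0143 over all genes tested.

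TM4SF1, the founding member and the gene 35.4 kb from TM4SF18, read 5.42 and 5.26 in shCDK8 cells and 5.24 and 5.31 in shControl cells after serum. In starved cells it read 5.42 and 5.33 in shCDK8 and 5.23 and 5.34 in shControl. Its range over the 8 arrays was 0.193, and the lines overlapped at both times. The order of the means was shCDK8 starved (5.38), shCDK8 serum (5.34), shControl starved (5.29) and shControl serum (5.27), and each neighbouring pair in that order overlapped.

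TM4SF4, the next gene along at a distance of 97.0 kb from TM4SF1, read 4.82 and 5.01 in shCDK8 cells and 4.92 and 5.00 in shControl cells after serum. In starved cells it read 5.05 and 4.81 in shCDK8 and 5.06 and 5.13 in shControl. The starved arrays of the lines did not overlap, by a margin far below the distance between the starved shCDK8 duplicates. By mean the starved shControl group came first (5.09), then the serum-treated shControl group (4.96), the starved shCDK8 group (4.93) and the serum-treated shCDK8 group (4.91), and the last 3 overlapped.

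TM4SF20, the regulator of CREB3L1 processing, read 3.61 and 3.46 in shCDK8 cells and 3.73 and 3.65 in shControl cells after serum. At the end of starvation it read 3.51 and 3.61 in shCDK8 and 3.59 and 3.64 in shControl. The lines overlapped when starved and not after serum. The means ran in the order shControl serum (3.69), shControl starved (3.61), shCDK8 starved (3.56) and shCDK8 serum (3.53), and of the neighbours in that order the first pair did not overlap and the others did.

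TM4SF5, which acts on integrins and on lysosomal arginine sensing, read 6.51 and 6.45 in shCDK8 cells and 6.45 and 6.68 in shControl cells after serum. Before serum it read 6.75 and 6.72 in shCDK8 and 6.61 and 6.87 in shControl. The serum-treated shCDK8 arrays lay below both starved ones, whereas the shControl groups overlapped. The means were 6.74 in both starved groups, 6.57 in serum-treated shControl cells and 6.48 in serum-treated shCDK8 cells, and of the neighbours in that order the starved shCDK8 and serum-treated shControl groups did not overlap while the others did.

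The L6 gene outside the 5 members, TM4SF19, shares probe set 8093104 with a read-through transcript, so its values belong to the probe set. It read 5.99 and 5.98 in shCDK8 cells and 5.95 and 5.77 in shControl cells after serum, and 5.73 and 5.81 in shCDK8 and 6.14 and 5.66 in shControl before it. All shCDK8 arrays lay within the range of the shControl arrays. It was not tested.

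The serum comparison was not used to choose the family and was tested, with limma's moderated test and Benjamini-Hochberg adjustment over all 18417 genes (a change is called below an adjusted p of 0.05). It asks whether 30 min of serum moved a member in either line. No member passed in shCDK8 cells, in shControl cells or in the average of both, where 0.255%, 0.462% and 0.76% of all genes did. Genes that rose were 0.25%, 0.424% and 0.684% of all genes in these comparisons, and genes that fell were 0.00543%, 0.038% and 0.076%. At an unadjusted p below 0.05 there was 1 member in shCDK8 cells, none in shControl cells and 1 in the average, in each case TM4SF5. The share of all genes at that unadjusted threshold was not computed, so these counts have no base rate. The arrays with and without serum did not overlap for 1 of 5 members in shCDK8 cells (41.2% of all genes) and for 2 of 5 in shControl cells (39.7%). The median response of the 5 members was -0.0296 in shCDK8 and -0.0123 in shControl cells, and that of all genes was -0.01 and -0.0145.

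For TM4SF18 the response to serum was 0.0424 ± 0.0797 (SE) in shCDK8 cells, with a 95% interval of -0.137 to 0.221 and an adjusted p of 0.887 in limma. Without 1 array it ran from 0.0189 to 0.0659. In shControl cells it was 0.0735 ± 0.0797, with an interval of -0.105 to 0.252 (adjusted p = 0.84), where the level is not shown to be above background. In shCDK8 cells each bound is small beside the 3.99 and 4.03 between the lines, the values for which the family was taken up. The shControl interval need not bound the true response there, since the level may be set by the floor of the probe set.

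TM4SF5 had the largest serum response of the family. Its level after serum differed from that in starved cells by -0.26 ± 0.10 in shCDK8 cells (95% interval -0.48 to -0.03, unadjusted p = 0.0284, limma adjusted p = 0.489) and by -0.18 ± 0.10 in shControl cells (interval -0.40 to 0.05, adjusted p = 0.647). The average over the lines was -0.22 ± 0.07 (interval -0.38 to -0.06, unadjusted p = 0.0125, adjusted p = 0.231). The serum-treated arrays lay below the starved ones in shCDK8 cells and overlapped with them in shControl cells. Without 1 array the response ran from -0.286 to -0.231 in shCDK8 cells. In shControl cells it ran from -0.307, without starved array 1 of that line, to -0.0459, without its starved array 2; it was also over 1.5 times nearer to or farther from 0 without either of its serum-treated arrays.

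The responses of TM4SF1, TM4SF4 and TM4SF20 were between -0.0336 and -0.0159 in shCDK8 cells and between -0.133 and 0.0756 in shControl cells. TM4SF4 gave the lowest of these, -0.133 ± 0.0951 in shControl cells (interval -0.346 to 0.0806, limma adjusted p = 0.733), and its arrays did not overlap there. TM4SF20 was the other member without overlap in shControl cells (0.0756 ± 0.0758, adjusted p = 0.817). Without 1 array its response there ran from 0.0359 to 0.115. TM4SF1, TM4SF4 and TM4SF20 are not shown to be above background, so a small response need not mean steady expression.

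Whether the lines responded differently was tested as the shCDK8 response minus the shControl response. In limma no member passed after Benjamini-Hochberg adjustment, none had an unadjusted p below 0.05, and 0% of all genes passed. For TM4SF18 the difference of responses was -0.0311 ± 0.113 (interval -0.284 to 0.222, limma adjusted p = 0.9998). Over the 5 members the differences ran from -0.105 for TM4SF20 to 0.117 for TM4SF4, with all intervals including 0. Without 1 array that of TM4SF20 ran from -0.18 to -0.0304.

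**Figure D2:**
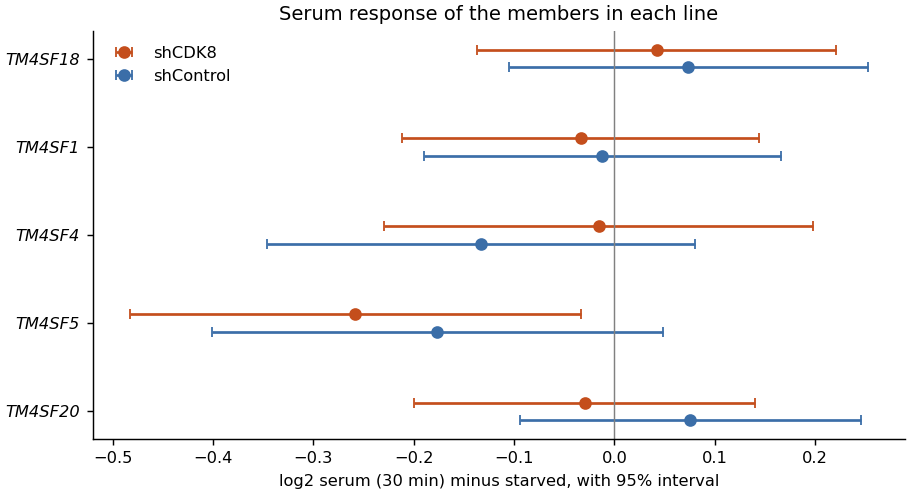
Log2 difference between serum-treated and starved cells (horizontal axis) for each member, in shCDK8 cells (orange) and shControl cells (blue). Points are differences of means of 2 arrays, and bars are 95% intervals from the limma model; of the 10 intervals, that of TM4SF5 in shCDK8 cells (-0.48 to -0.03) leaves out 0 before adjustment.

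The genes around the chromosome 3 cluster were then compared between the lines, to see how far the difference of TM4SF18 extends along the chromosome. The 5 nearest measured genes on each side were taken in RefSeq order, CPA3, GYG1, HLTF, HPS3 and CP before TM4SF18 and WWTR1, COMMD2, RNF13, PFN2 and LOC646903 after TM4SF4. They differed by -0.198 to 0.253 after serum and by -0.3003 to 0.384 in starved cells, and none of them came near the 3.99 and 4.03 of TM4SF18. CP, the ceruloplasmin gene and the nearest on the TM4SF18 side, read 3.76 in shCDK8 and 3.69 in shControl cells after serum (limma adjusted p = 0.772). In starved shCDK8 and shControl cells it read 3.61 and 3.73 (adjusted p = 0.525). CP and CPA3 (group means of 3.73 to 3.89) read below 5.55, the 25th percentile of gene means, as did TM4SF1 and TM4SF4. None of them is shown to be above background, so they cannot show how far the difference extends. WWTR1, which encodes the transcriptional coactivator TAZ and follows TM4SF4, was at 9.16 in shCDK8 and 8.99 in shControl cells after serum, and at 9.06 and 8.96 before it (adjusted p = 0.151 and 0.408).

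After serum 3 of the 10 neighbours had an unadjusted p below 0.05 in limma. The share of all genes at that threshold was not computed, so this count has no base rate. After adjustment none of the 10 neighbours passed after serum, where 7.7% of all genes were higher and 6.54% lower. In starved cells 1 was higher and 1 lower, where 7.13% and 6.28% of all genes were. GYG1, which encodes the primer of glycogen synthesis, was higher in starved shCDK8 cells (9.39 against 9.01; 0.38 ± 0.07 SE, adjusted p = 0.00793), and HLTF, a DNA translocase of damage tolerance, was lower (9.62 against 9.92; -0.30 ± 0.07, adjusted p = 0.0156). These 2 genes overlap in RefSeq, as do HPS3 and CP. The GYG1 call ended without starved array 2 of shCDK8 or of shControl (adjusted p up to 0.0535), and the HLTF call without starved array 1 of shCDK8 or either starved array of shControl (up to 0.111). The count after serum was 2 with an intensity trend and 1 with dim genes left out, with cyclic loess or without serum array 2 of shCDK8. The median difference of the 10 neighbours was 0.0601 after serum and 0.0292 in starved cells, beside -0.0069 and -0.0143 for all genes.

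**Figure D3:**
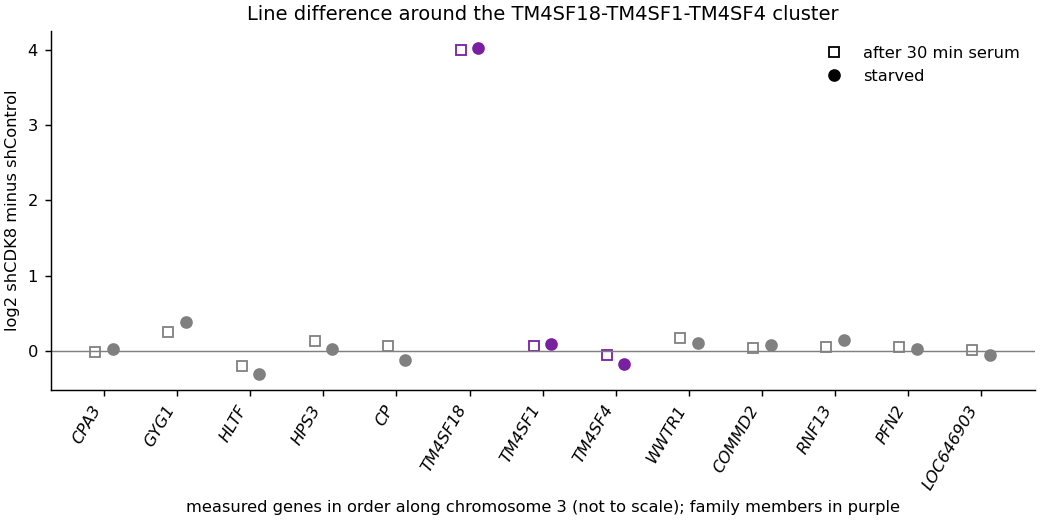
Log2 level in shCDK8 minus shControl cells (vertical axis) for the measured genes around the cluster, in their order along chromosome 3 (horizontal axis, not to scale). Open squares are after serum and filled circles are starved cells, each a difference of means of 2 arrays, with family members in purple; TM4SF18 stands at 3.99 and 4.03, and every other gene lies between -0.30 and 0.38.

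The genes whose profile was most like that of TM4SF18 were found by the root mean square distance over the 8 arrays, after each gene was centred on its own mean. The 5 nearest were TNFSF4 (distance 0.32), ADGRF1 (0.39), FGF9 (0.44), TNFSF18 (0.46) and BMP4 (0.64), on chromosomes 1, 6, 13, 1 and 14. They are given as a description, since the measure uses the line difference itself. TNFSF4, the ligand of the OX40 receptor, read 9.77 and 9.89 in shCDK8 cells against 5.13 and 5.02 in shControl cells after serum, and 9.63 and 9.71 against 5.26 and 5.22 before it. FGF9, a fibroblast growth factor, had nearly equal differences at both times, 3.24 after serum and 3.24 in starved cells. TNFSF18, the GITR ligand, had the widest differences of the 5, 5.00 after serum and 4.74 in starved cells. BMP4, a bone morphogenetic protein, had the narrowest, 2.69 and 2.86. On the shControl arrays TNFSF4, FGF9 and TNFSF18 read below 5.55, the 25th percentile of gene means, while ADGRF1 and BMP4 read above it. As for TM4SF18, the differences of those below it may be understated, and so may their order by width. Duplicates of FGF9 in serum-treated shControl cells stood apart, at 5.36 and 4.73, whereas TM4SF18 read 4.21 and 4.37 there.

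**Figure D4:**
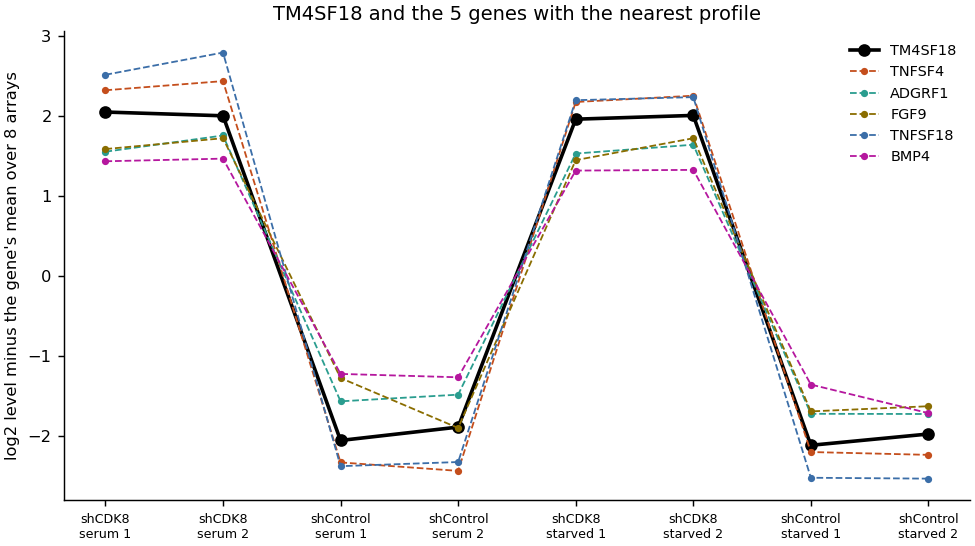
Log2 level minus the mean of the gene over the 8 arrays (vertical axis) for TM4SF18 (black) and the 5 genes with the nearest profile (dashed), on each array (horizontal axis); lines only join the values of 1 gene. All 6 genes are above their means on the 4 shCDK8 arrays and below them on the 4 shControl arrays.

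Classical tetraspanins, the larger family of similar membrane topology, were compared between the lines as relatives of the members. Their list was also chosen with earlier results of these data known, so the shares given are a description. Of 32 measured, 5 were higher and 2 lower in shCDK8 cells after serum (15.6% and 6.25%, beside 7.7% and 6.54% of all genes), and 5 were higher and 1 lower in starved cells (15.6% and 3.12%, beside 7.13% and 6.28%). The median difference was 0.0407 after serum and -0.0098 in starved cells, against -0.0069 and -0.0143 for all genes. TSPAN13 differed most, at 9.07 in shCDK8 and 7.96 in shControl cells after serum (1.11 ± 0.07 SE, adjusted p = 9.95e-06) and at 9.03 and 7.93 in starved cells (1.10 ± 0.07, adjusted p = 1.14e-05). TSPAN12, part of the norrin receptor complex with FZD4, was 1.55-fold higher after serum (0.63 ± 0.08) and 1.55-fold higher in starved cells (0.63 ± 0.08). TSPAN14, a partner of the protease ADAM10, was higher by 0.37 ± 0.06 and 0.44 ± 0.06.

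TSPAN6 was higher by 0.32 ± 0.09 after serum (limma adjusted p = 0.047) and by 0.49 ± 0.09 in starved cells (0.00671). Its serum call ended under 9 of 16 alternatives, 6 of which left out an array (adjusted p up to 0.248), and its starved call ended without starved array 2 of shCDK8 or of shControl (up to 0.0561). TSPAN18 (0.59 ± 0.07 and 0.40 ± 0.07) was the remaining one that was higher at both times, and TSPAN1 was lower at both (-0.44 ± 0.08 and -0.36 ± 0.08); these were picked out after their values were seen. TSPAN1 lost its starved call without any one of the 4 starved arrays (adjusted p up to 0.0891) and its serum call without serum array 2 of shControl (0.0531). UPK1A, a urothelial plaque protein likewise picked out after its values were seen, was the other one lower after serum (-0.27 ± 0.07, adjusted p = 0.0378), a call that ended under 9 of 16 alternatives (up to 0.243). The count after serum was 4 without serum array 2 of shControl. The tetraspanins CD9, CD63, CD81, CD82 and CD151, which are broadly expressed and gather integrins, did not pass at either time, with differences between -0.174 and 0.188. In limma no tetraspanin passed in a serum comparison. At an unadjusted p below 0.05 there were 0 in shCDK8 cells, 2 in shControl cells, 3 in the average and 1 in the difference of responses. These counts have no base rate, since the share of all genes at that threshold was not computed.

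Genes of proteins reported to bind or act with L6 members were compared in the same way. This list was chosen with earlier results of these data known, so its shares beside those of all genes are a description. Of 12 measured, 3 were higher and none lower in shCDK8 cells after serum (25%, beside 7.7% of all genes) and 4 were higher and none lower in starved cells (33.3%, beside 7.13%). IGF1R, the insulin-like growth factor receptor, was 3.28-fold higher after serum (8.56 in shCDK8 and 6.85 in shControl cells, adjusted p = 1.62e-06) and 3.05-fold higher in starved cells (8.44 and 6.83, adjusted p = 2.49e-06). CD44, the hyaluronan receptor, was 2.07-fold higher after serum and 2.04-fold higher in starved cells. DDR1, a collagen receptor kinase that TM4SF1 couples to protein kinase C, was higher by 0.35 ± 0.06 and 0.37 ± 0.06, and its serum call ended without serum array 1 of shControl (adjusted p = 0.0513). SLC38A9, the lysosomal arginine sensor that TM4SF5 binds, was higher by 0.28 ± 0.08 in starved cells (adjusted p = 0.0465) and stood at 0.08 ± 0.08 after serum (0.587); the starved call ended under 13 of 16 alternatives (up to 0.227). The integrin genes ITGA2, ITGA5 and ITGB1 and the focal adhesion kinase gene PTK2 differed by 0.0013 to 0.0366 after serum and by -0.0544 to 0.0626 in starved cells, and none passed. SRC, EGFR and PRKCA did not pass at either time, and SRC was at -0.161 after serum. CREB3L1 did not pass either (-0.0926 and 0.125). In limma no gene of this list passed in a serum comparison. There 0 in shCDK8 cells, 1 in shControl cells, 2 in the average and 0 in the difference had an unadjusted p below 0.05. For these counts too the share of all genes was not computed. The median difference was 0.0368 after serum and 0.0472 in starved cells.

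**Figure D5:**
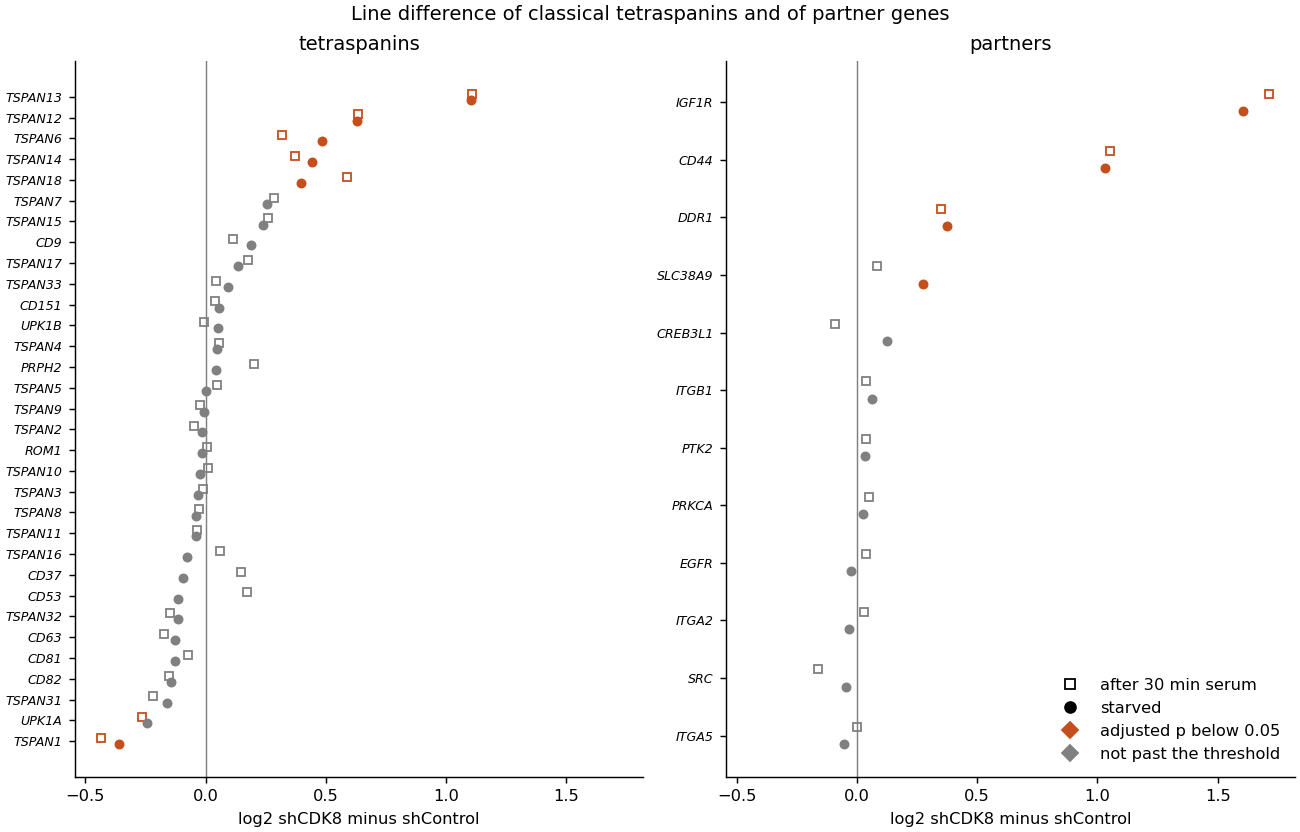
Log2 level in shCDK8 minus shControl cells (horizontal axis) for 32 classical tetraspanins (left) and 12 partner genes (right), ordered by the value in starved cells. Open squares are after serum and filled circles starved cells, each a difference of means of 2 arrays, in orange where limma's adjusted p is below 0.05; TSPAN13 (1.11 and 1.10) and IGF1R (1.71 and 1.61) stand at the top.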

How the data were processed

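Total RNA from 8 samples was hybridized to Affymetrix human gene arrays, 1 array a sample. The deposited values are log2 probe set summaries that the authors made with RMA, per the submitters' processing notes; the sources used here give neither its version, a genome build nor whether arrays were normalized jointly. Of 33297 probe sets, 19460 were paired with exactly 1 gene (19429 matched RefSeq, GRCh38.p14, 0 symbols changed), and the brightest of a gene's probe sets was kept, leaving 18417 genes. No filter was applied. Means of the 4 groups were fitted with limma 3.58.1 in R 4.3.3 (4 residual and 5.49 prior degrees of freedom). Tests were two-sided, with Benjamini-Hochberg adjustment over all genes. Groups came from the labels. The number of arrays limits the precision. Members and gene lists were chosen with earlier results of these data known. Named were the members, all 10 neighbours, the 5 nearest profiles and, per list, the 4 called genes with the largest starved line difference; others were named after their values were seen. Alternatives were an intensity trend, the compared arrays alone, a replicate block, genes above the 25th percentile, cyclic loess, median centring, the mean of probe sets and leaving out each array, plus a crossed replicate block chosen after seeing the data. Figures were drawn with matplotlib 3.10.9.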

Additional observations from a re-analysis of the deposited data

How the results depend on the processing

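Under the alternatives that left out no array, the number of members past the threshold stayed 0 in each serum comparison they covered. In the main fit the smallest limma adjusted p of a member was 0.231, for TM4SF5 in the average response. Values of single members in that average were not kept under the alternatives. The line difference of TM4SF18 ran from 3.91 to 4.08 after serum and from 3.96 to 4.10 in starved cells without 1 array. Replicate numbers were shared between groups, and the labels do not say whether same-numbered arrays were paired. Deviations of same-numbered arrays correlated with r from -0.187 to 0.126, which cannot decide whether they were. The replicate block gave 0 members in every serum comparison, 5 and 6 tetraspanins, 3 and 3 partners and 0 and 2 neighbours after serum and in starved cells; it moved no count by over 1.5 times, but the calls of SLC38A9 in starved cells and of TSPAN6 and UPK1A after serum ended under it. A crossed replicate block, added after seeing that the deviations of the starved arrays correlated with r = -0.187 between the lines, gave 6 and 7, 3 and 3, and 0 and 2. Neighbours past the threshold after serum numbered 2 with the intensity trend, 1 above the 25th percentile and 1 with cyclic loess. Without 1 array they numbered 0 to 1 after serum and 0 to 2 in starved cells, and tetraspanins after serum 4 to 6. Of the 5 members, 2 (TM4SF5 and TM4SF18) had a mean level above the 25th percentile, so that alternative gave no value for the others. TM4SF18 passed it through its shCDK8 arrays alone, so its values there say nothing more about its response in shControl cells. Small responses changed sign, none of them past the threshold, and the cause was not tested: TM4SF1 in shControl cells with cyclic loess (0.0503) and median centring (0.01), TM4SF1 in shCDK8 cells with cyclic loess (0.0081), and TM4SF4 in shCDK8 cells with both (0.0199 and 0.0019). Without 1 array, responses in shCDK8 cells ran from -0.112 to 0.0446 for TM4SF1, -0.137 to 0.105 for TM4SF4 and -0.104 to 0.0452 for TM4SF20; in shControl cells from -0.0685 to 0.0439 for TM4SF1 and -0.01 to 0.157 for TM4SF18; and their difference from -0.0994 to 0.057 for TM4SF1, -0.004 to 0.238 for TM4SF4, -0.212 to 0.049 for TM4SF5 and -0.115 to 0.0524 for TM4SF18. Line differences after serum ran from -0.08 to 0.0618 for CPA3, -0.0033 to 0.2701 for HPS3, -0.0951 to 0.222 for CP and -0.0735 to 0.115 for LOC646903, and in starved cells from -0.0226 to 0.0837 for CPA3, -0.0741 to 0.13 for HPS3, -0.0283 to 0.0786 for PFN2 and -0.152 to 0.0365 for LOC646903.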
